A study of Homo sapiens with 2 samples.

Results

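The serine/arginine-rich (SR) splicing factors examined here are the products of SRSF1, SRSF2, SRSF3, SRSF5, SRSF6, SRSF7, SRSF10, SRSF11, TRA2A and TRA2B. Their transcripts were searched for contacts of SF3B1, the main scaffold protein of SF3b, the part of the U2 snRNP (small nuclear ribonucleoprotein) that sits at the branch point of introns. An interval was counted for a gene where the deposited peak list gave that gene's NCBI number and the gene's span held the midpoint of the interval. On this rule 16 of the 1406 distinct intervals of the list belonged to 8 of the 10 genes, and SRSF7 and TRA2A held none. The genes were chosen with earlier results of these data known.

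The libraries came from HITS-CLIP, in which ultraviolet light crosslinks a protein to the RNA it touches and an antibody recovers both. They were 2 biological duplicates of 1 group, MDA-231-LM2, a human breast cancer line derived from MDA-MB-231 for its metastasis to the lung, with no input or control library. The labels name an anti-SF3B1 antibody, whereas their extract protocol names SNRBP2. The deposited list pools both libraries, so no value below has a replicate error, the depth of each library is unknown, and no comparison was tested.

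SR proteins carry an RNA recognition motif and a domain rich in serine and arginine. They bind exonic enhancers and help bring U1 snRNP and U2AF to splice sites, which precedes the stable docking of U2 snRNP at the branch point. Many SR genes limit their own expression by splicing in a poison exon, whose premature stop codon sends the transcript to nonsense-mediated decay. Exons, introns and the sequences of the intervals were not analysed here, so positions are given along the gene and not against such exons.

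An interval was found in 8 of the 10 genes (80%, exact 95% interval 44.4 to 97.5), against 5.29% of 19987 protein-coding genes. At least 2 intervals lay in 6 of the 10, against 0.931% of protein-coding genes, and at least 3 in SRSF2 and SRSF5, against 0.245%. The SR genes are short, with a median span of 13610 nt and a longest span of 47357 nt in SRSF11. Among protein-coding genes no longer than SRSF11, 3.72% held an interval and 0.588% held at least 2. Transcript levels were not measured, so these background shares, here and below, include any genes not expressed in these cells. All 16 intervals overlapped no RefSeq gene other than their own, and each was listed under 1 gene number. Their strand was that of the gene in all 13 cases where the promoter table gave one.

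**Figure D1:**
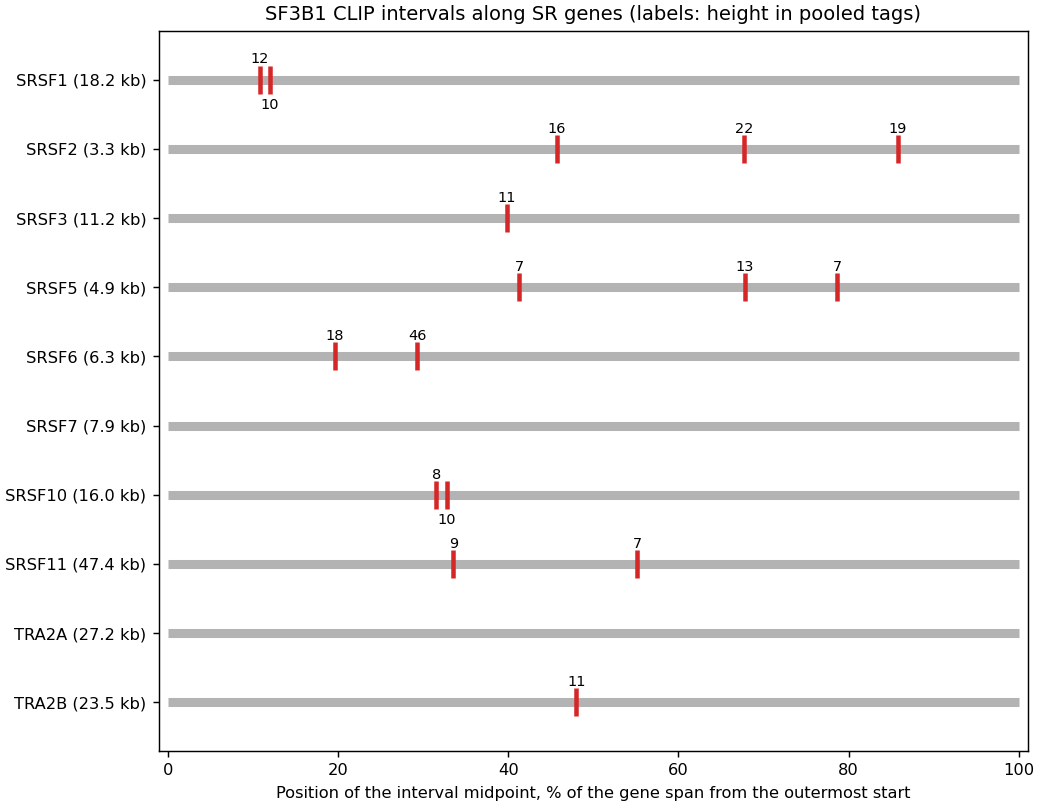
Position of the 16 intervals along the 10 SR genes, as percent of the gene span from the outermost annotated start (x axis), with 1 grey bar per gene and the height in pooled tags beside each red mark. SRSF1 and SRSF10 each show a close pair, SRSF2 and SRSF5 hold 3 intervals each, and the bars of SRSF7 and TRA2A are empty.

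Height is the deposited number of pooled tags at the top of a peak, with no normalization. The list also gives each gene an expected height, which is 1 value per gene, and each peak a p-value, both the authors' own. Across the 16 intervals the height ranged from 7 to 46 tags with a median of 11, against a median of 7 (quartiles 6 and 10) over 1290 intervals in other protein-coding genes. In other protein-coding genes no longer than SRSF11 the median was 9 (quartiles 6 and 12). Of the 16, 13 were taller than 7 tags, the median of the whole list, against 593 of 1290 elsewhere. These 13 lay in 8 of the 10 genes, against 2.43% of protein-coding genes with an interval that tall. SRSF2 and SRSF6 held 5 of the intervals and 53.5% of the summed 226 tags. In the other 6 genes, 11 intervals lay between 7 and 13 tags.

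Among the SR proteins with a pair of RNA recognition motifs are SRSF6, SRSF5 and SRSF1. SRSF6, also known as SRp55, held the tallest interval of the family, 46 tags at chromosome 20, 43459737 to 43459781, plus strand (hg38, as for all positions here). It ranked 18th in height among 1306 intervals in protein-coding genes and 33rd of 1406 in the list. Its other interval, 18 tags at 43459121 to 43459163, lay 617 nt upstream, midpoint to midpoint. Both fell in the part of the gene nearer its start, at 19.6% and 29.4% of its 6348 nt. The 95% Poisson interval of the taller one, 33.7 to 61.4, did not overlap that of any other SR interval; such intervals cover counting error only. The expected height of SRSF6 was 0.73, so its intervals stood at 24.7 and 63.0 times that value. Both carried a p-value of 1e-100, the lowest in the list, which 269 of the 1406 intervals share.

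SRSF5, also known as SRp40, held 3 intervals within 4864 nt of chromosome 14, plus strand. The middle one reached 13 tags at 69770419 to 69770462, and the outer ones, at 69769130 to 69769174 and 69770942 to 69770992, reached 7 tags each. They lay at 41.3%, 67.8% and 78.7% of the span. The expected height was only 0.09, so the middle interval stood at 144 times it, the highest ratio of the family, and the outer ones at 77.8 times. The middle interval had the lowest listed p-value, 1e-100, and the outer ones 0.00076 each. The Poisson interval of 13 tags (6.92 to 22.2) overlapped that of 7 tags (2.81 to 14.4). Whether these heights differ was not tested.

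SRSF1, or SF2/ASF, was among the first SR proteins described and is a known proto-oncogene. It held a close pair on chromosome 17, minus strand: 12 tags at 58005251 to 58005293 and 10 tags at 58005046 to 58005075. Their midpoints were 211.5 nt apart, at 1974 and 2185.5 nt from the gene start. That is 10.8% and 12.0% of the span, the positions nearest the start, as a share of the gene, in the family. Relative to the expected height of 0.35 they stood at 34.3 and 28.6 times, with deposited p-values of 3.83e-07 and 0.000334.

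SRSF2, SRSF3 and SRSF7 each have a single RNA recognition motif. SRSF2, known as SC35, held 3 intervals in the shortest span of the family, 3297 nt on chromosome 17, minus strand. In the direction of transcription these were 16 tags at 76735883 to 76735923, 22 tags at 76735159 to 76735199 and 19 tags at 76734562 to 76734606. They were spread at 724 and 595 nt from midpoint to midpoint, at 45.8%, 67.7% and 85.8% of the span. The last lay 469 nt from the far end of the gene, the only SR interval within 1 kb of the far end. Other genes were not counted in this way. Per length SRSF2 had 9.10 intervals per 10 kb, rank 4 among the 186 protein-coding genes with at least 2 intervals; SRSF5, with 6.17, had rank 8. MIR636, a microRNA gene inside SRSF2 (76736450 to 76736548), held no interval, and the nearest one ended 526 nt away.

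By height SRSF2 was second to SRSF6, but by ratio it was the lowest of the family. Its expected height, 1.72, was the highest of the 8 genes and 21.5 times that of SRSF11, at 0.08. The 3 intervals stood at 9.30, 12.8 and 11.0 times it, and fewer than 1% of protein-coding intervals had a lower ratio. The deposited p-values were 0.000733, 4.54e-10 and 7.76e-07. The Poisson intervals of the 3 heights, from 9.15 to 26.0 for 16 tags up to 13.8 to 33.3 for 22 tags, overlapped.

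SRSF3, the smallest SR protein, held 1 interval of 11 tags at chromosome 6, 36598813 to 36598866, plus strand. It lay at 39.8% of the gene's 11239 nt and at 39.3 times the expected height of 0.28, with a deposited p-value of 5.47e-07. SRSF7, or 9G8, which is closely related to SRSF3 and adds a zinc knuckle, had no interval in its 7896 nt on chromosome 2. No interval of any listed gene overlapped the spans of SRSF7 or TRA2A. The list holds called peaks only, with a lowest height of 3 tags over all genes. For genes of higher expected height the lowest listed peak was taller, 13 tags around SRSF2. An empty span therefore does not show that tags were absent, or that they were fewer than 3.

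SRSF10 and SRSF11 are SR proteins outside the classical group. SRSF10, or SRp38, is known as a splicing repressor when dephosphorylated. Like SRSF1 it held a close pair, 8 tags at chromosome 1, 23975266 to 23975300, and 10 tags at 23975066 to 23975106, minus strand. The midpoints were 197 nt apart, at 31.6% and 32.8% of the span. With an expected height of 0.15 these stood at 53.3 and 66.7 times it, with deposited p-values of 0.000198 and 6.06e-08.

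SRSF11, or p54, held 9 tags at chromosome 1, 70221555 to 70221623, and 7 tags at 70231799 to 70231864, plus strand. They were the widest SR intervals, 69 and 66 nt, against a family median of 44.5 nt and 43 nt in other protein-coding genes. The ratios were 112 and 87.5 times the expected height, with deposited p-values of 4.46e-08 and 0.000389. RefSeq gives SRSF11 an outer start at 70205696 and an inner start 15684 nt further on, at 70221380. The first interval began 175 nt past the inner start, and its midpoint, at 209 nt, was the only one of 13 SR midpoints within 500 nt of an annotated start (7.69%, against 2.13% of 1082 elsewhere). The 120 bases before each start are shown because this interval follows the inner one; they come from RefSeq (GRCh38.p14), plus strand, at chr1:70205576-70205695 and chr1:70221260-70221379, with CG dinucleotides in capitals.
SRSF11 outer start: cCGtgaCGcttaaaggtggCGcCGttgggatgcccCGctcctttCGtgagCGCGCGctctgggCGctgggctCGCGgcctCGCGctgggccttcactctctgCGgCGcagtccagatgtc
SRSF11 inner start: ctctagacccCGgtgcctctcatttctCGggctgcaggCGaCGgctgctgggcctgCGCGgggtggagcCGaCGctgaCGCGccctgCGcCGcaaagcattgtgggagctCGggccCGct
Over the 250 bases before the start, CG occurred 24 times at the outer and 18 times at the inner one. The median was 11 over 35116 promoter windows, and 93.9% of all windows held at least 1. Of these windows, 76.3% held fewer than the outer start and 63.2% fewer than the inner one. The GC content was 64.8% and 52.0%, on either side of the median of 58.0%. The list holds no tags for these windows, so they describe the gene and not a contact.

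TRA2A and TRA2B are the human counterparts of Drosophila transformer-2, with a serine and arginine-rich domain at each end of the protein. TRA2B held 1 interval of 11 tags at chromosome 3, 185926727 to 185926782, minus strand, near the middle of its 23457 nt (48.0%). It stood at 91.7 times the expected height of 0.12 and had the lowest listed p-value, 1e-100. TRA2A had none in 27202 nt of chromosome 7.

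**Figure D2:**
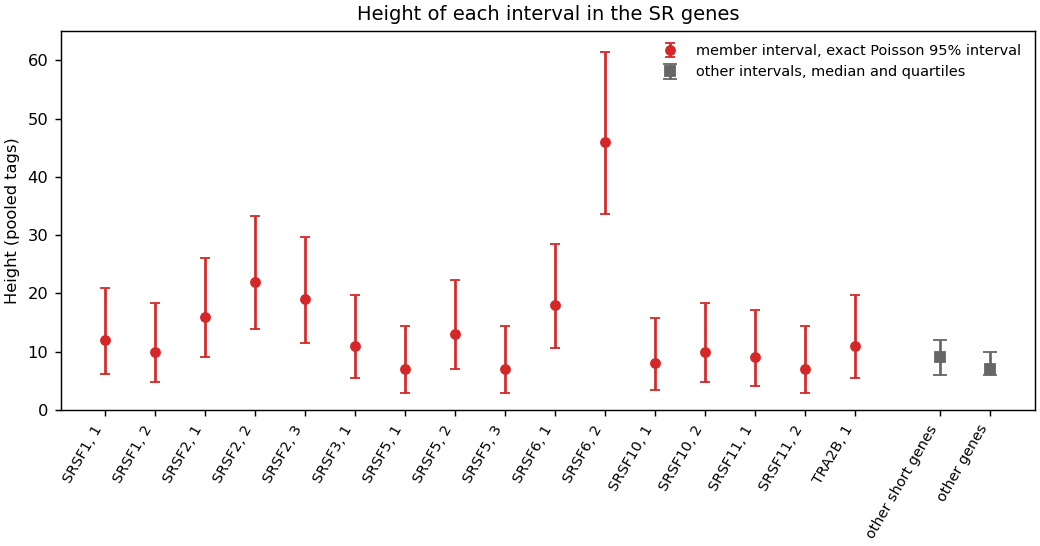
Height in pooled tags (y axis, from 0) of each SR interval, numbered along its gene, with exact Poisson 95% intervals that cover counting error only, and at the right the median and quartiles of other protein-coding genes, those no longer than SRSF11 and all. The second SRSF6 interval, at 46 tags, stands apart from the rest, which lie between 7 and 22.

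The order of the family depended on whether height or the ratio to the expected height was used. By tallest interval it ran SRSF6 (46 tags), SRSF2 (22), SRSF5 (13), SRSF1 (12), SRSF3 and TRA2B (11 each), SRSF10 (10) and SRSF11 (9). From SRSF2 down, neighbours in this order had overlapping Poisson intervals. By highest ratio SRSF5 (144) led, followed by SRSF11 (112), TRA2B (91.7), SRSF10 (66.7), SRSF6 (63.0), SRSF3 (39.3), SRSF1 (34.3) and SRSF2 (12.8). SRSF11, last by height, was next to the top by ratio, and SRSF2, next to the top by height, was last by ratio.

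The median ratio of the 16 intervals was 58.2, against 167 in other protein-coding genes and 88.9 in those no longer than SRSF11. All 16 lay below the 167, and 3 lay above the 88.9: the middle interval of SRSF5, the first of SRSF11 and that of TRA2B. The expected height had a median of 0.215 in the 8 SR genes, against 0.04 in 1049 other protein-coding genes with an interval and 0.08 in those no longer than SRSF11. Every one of the 8 SR genes was above 0.04 and none was below 0.08. How the authors derived this value is not given in the sources used here. Transcript levels were not measured, so abundance of these mRNAs and contact with SF3B1 cannot be told apart.

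The lowest height that was listed grew with the expected height, which bears on the heights of the SR genes. Around SRSF11 (expected heights within 20% of 0.08) the lowest of 129 other intervals had 6 tags. Around SRSF1 the lowest of 58 had 8 tags, and around SRSF2 the lowest of 19 had 13. Set against intervals of like expected height, 6 of the 16 SR intervals were above the median: both of SRSF6, the middle one of SRSF5, the taller one of SRSF10, the first of SRSF11 and that of TRA2B. The 46 tags of SRSF6 were exceeded by 2 of 25 such intervals in 14 genes, with a median of 13. The 3 intervals of SRSF2 were all below their median of 26. The 19 intervals behind that median came from only 7 genes, so a gene with several intervals weighs heavily in it. HNRNPH1 (8 intervals, expected height 1.53) and NOP56 (4 intervals, 1.55) fall within that band. The 20% band was chosen after the values had been seen.

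**Figure D3:**
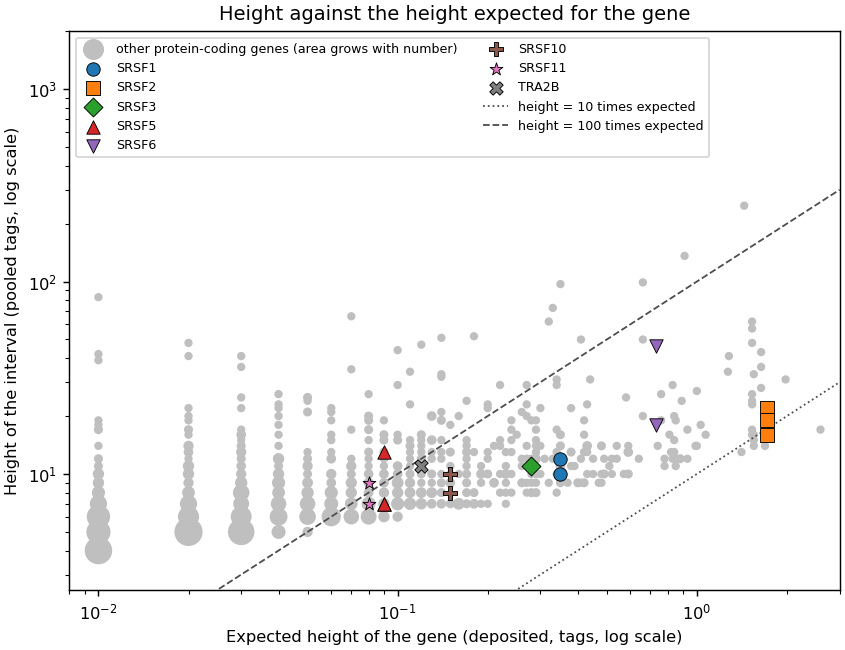
Height of each interval in pooled tags (y axis, log scale) against the deposited expected height of its gene in tags (x axis, log scale), with SR genes as coloured symbols and other protein-coding genes in grey, and lines at 10 and 100 times the expected height. The lower edge of the grey points rises to the right, and the 3 SRSF2 intervals lie near that edge while SRSF6 at 46 tags lies well above it.

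Along the gene, the SR intervals lay mostly away from the far end. With each span cut into 3 equal parts, 6 of the 16 fell in the first part, 6 in the middle and 4 in the last, and these 4 were all in SRSF2 and SRSF5. Elsewhere 269, 386 and 645 of 1300 did, and in genes no longer than SRSF11 147, 210 and 240 of 597. The median position was 40.6% of the span, against 66.5% in other protein-coding genes and 59.8% in those no longer than SRSF11. No SR interval lay within 1 kb of the outermost start, a count that was not made for other genes. The median distance from that start was 3062.75 nt in the SR genes (lower quartile 2001). In other protein-coding genes no longer than SRSF11 it was 10182.5 nt (lower quartile 4350.5). RefSeq spans take in every transcript model of a gene, predicted ones included, so these shares depend on the longest model.

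Where a gene held several intervals, neighbours lay at most 1288.5 nt apart except in SRSF11. Of the 8 neighbouring pairs, SRSF10 and SRSF1 had the shortest spacings, 197 and 211.5 nt, followed by SRSF5 (526.5 and 1288.5 nt), SRSF2 (595 and 724 nt) and SRSF6 (617 nt), while the pair in SRSF11 was 10242.5 nt apart. The median was 606 nt, against 5267 nt for 251 pairs in other protein-coding genes and 1395 nt for 105 pairs in those no longer than SRSF11. At most 250 nt separated 2 of the 8 SR pairs, against 12 of 251 elsewhere (4.78%) and 7 of 105 in the shorter genes (6.67%). Spacing is bounded by the gene span, which was 3297 nt in SRSF2, 4864 nt in SRSF5 and 6348 nt in SRSF6. SRSF10 and SRSF1, with the closest pairs, spanned 15981 and 18209 nt. The median span of all protein-coding genes no longer than SRSF11 was 12654.5 nt. The shorter genes compared here span up to 47357 nt, and spacing was not compared at like span. Whether short span goes with close spacing was not tested.

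Of the remaining SR genes, SRSF9 held 1 interval and SRSF4, SRSF8 and SRSF12 held none; this share, 25% (exact 95% interval 0.631 to 80.6), has an interval that takes in the 5.29% of all protein-coding genes. That of SRSF9, or SRp30c, had 7 tags at chromosome 12, 120464121 to 120464179, minus strand, at 69.3% of its 8077 nt and 50 times its expected height of 0.14. Genes around the SR proteins were also counted, as lists chosen with earlier results known. SR kinases, which phosphorylate SR proteins, and speckle proteins had an interval in 5 of 10 genes (50%, exact 95% interval 18.7 to 81.3), against 5.29% of all protein-coding genes, led by SRRM2 (17 tags), SON (15) and SRPK1 (11). SR-related proteins, whose genes have a median span of 38183.5 nt, had one in 9 of 20 (45%, 23.1 to 68.5), against the same 5.29%, with LUC7L3, a U1-associated factor, at 47 tags, RBM5 at 29 and RBM39 at 22. Of the 6 U1 snRNP and U2AF proteins that SR proteins help to recruit, U2AF2 alone held an interval, of 7 tags. That share, 16.7% (0.421 to 64.1), has an interval that takes in the 5.29% of all protein-coding genes. The genes and lists were chosen with earlier results known, so whether an interval takes in that share is no test.

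The core hnRNP genes, whose products often oppose SR proteins in exon choice, had an interval in 14 of 24 genes (58.3%, exact 95% interval 36.6 to 77.9), against 5.29% of all protein-coding genes, led by HNRNPH1 (62 tags), HNRNPA2B1 (27) and HNRNPM (20). The median height was 11 tags in the SR genes, against 15 over the 27 hnRNP intervals, or 12 without HNRNPH1. The median ratio to the expected height was 58.2 in the SR genes, against 31.4 in the hnRNP genes, or 41.4 without HNRNPH1. Per 10 kb of span the SR genes held 0.965 intervals and the hnRNP genes 0.535, or 0.393 without HNRNPH1, against 0.0285 in protein-coding genes no longer than SRSF11. The median position was 40.6% in the SR genes and 66.6% in the hnRNP genes, or 58.9% without HNRNPH1, beside 59.8% in protein-coding genes no longer than SRSF11. None of these differences was tested.

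**Figure D4:**
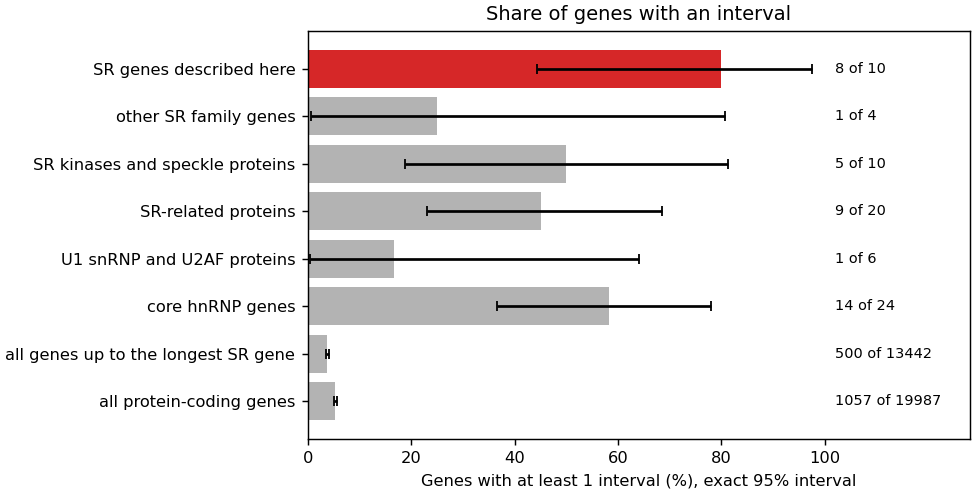
Percent of genes with at least 1 interval (x axis, from 0) for the 10 SR genes, the related gene lists and all protein-coding genes, with exact 95% intervals and the counts at the right. The SR genes stand at 80% and the core hnRNP genes at 58.3%, against 5.29% of all protein-coding genes; the SR genes were chosen with these results known.

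Outside these lists, the genes no longer than SRSF11 with the most intervals were ACTB, a cytoplasmic actin, with 5 of 7 to 14 tags, and NOP56, a snoRNP protein, with 4 of 14 to 33. PKM, a glycolytic enzyme, and the ribosomal protein gene RPL10 followed with 4 each, and SNX5, a sorting nexin, with 3 of 9 to 97 tags. Likeness here means the number of intervals in 1 pooled list, with ties broken by height. SRSF2 and SRSF5, with 3 intervals each, were the nearest SR genes to them.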

How the data were processed

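SF3B1 HITS-CLIP was done in 2 biological duplicates of MDA-231-LM2 cells. Per the file's name, the authors pooled unique tags of both libraries, kept significant peaks and trimmed each peak to an interval by its height. The submitters' processing notes name cutadapt 2.3, BWA 0.7.17 and hg38. The caller of the peaks, its cutoff and its gene models are not given in the sources used here. Peak height, in pooled tags, is the deposited signal and was not normalized; the deposited text field adds a gene number, an expected height and a p-value.

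From the 1587 rows, rows with identical coordinates and strand were taken as 1 interval. Spans came from the RefSeq gene table of GRCh38.p14, without genes of chromosome Y, and promoters from RefSeq tables, which held 8 of the 10 members. Direction along a gene followed the interval's strand. Ratios left out 48 of 1316 assignments with an expected height of 0. Exact 95% intervals are Clopper-Pearson for shares, as if genes were independent, and Poisson for heights; both cover counting error only. The members and all lists were chosen with earlier results of these data known; every member and interval is named, of other SR genes all, and of each further list at most 3 with an interval. With 1 pooled list there is no test. Assignment, merging and position were tested on simulated data. The software was matplotlib 3.10.9, scipy 1.17.1, pandas 2.3.3, numpy 2.4.6 and Python 3.11.15.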

Additional observations from a re-analysis of the deposited data

How the results depend on the processing

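No paired analysis was possible because the list pools both libraries, and for the same reason neither replicate could be left out. Of 37 values under 9 alternative settings, 36 stayed within the interval of the reported value or, for counts and densities, within 1.5 times of it. For the medians these intervals were wide: 8 to 18 tags for height, 24.7 to 87.5 for the ratio and 29.4% to 67.7% for position. Staying within them is therefore a weak check. With gene numbers as listed, any overlap of 1 nt, or intervals within 50 nt merged, the 16 intervals in 8 genes stayed. These settings had nothing to change in the SR genes, so their values are no check of the SR results. The closest SR midpoints were 197 nt apart, and every row listed under an SR gene lay inside its span. Among intervals taller than the median of 7 tags, 13 remained, still in 8 genes, with a median ratio of 39.3, while the share of protein-coding genes with an interval was 2.43%, fewer intervals being counted. Without SRSF2 and SRSF6, chosen after seeing the data, the median height was 10 tags, the median ratio 77.8 and the median position 39.8%. Depth limits the order of heights: counting intervals overlapped for all but the tallest interval of SRSF6. Overlap of 2 such intervals does not show that the heights are equal, and no pair was tested.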
